A study of Homo sapiens with 4 samples.

Results

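Interferon-inducible genes whose products act on the entry, release or RNA of viruses were followed in HEK293, a human cell line of embryonic kidney origin. They are IFITM1, CH25H, BST2, RSAD2, PLSCR1, ISG20, ZC3HAV1, SAMD9 and SAMD9L, that is 9 of the 18639 genes named on the array, chosen by name and each read by 1 probe. The cells carried a transgene for LGP2-4KR or for LGP2, a cytoplasmic RNA sensor related to RIG-I and MDA5. The labels give neither the meaning of 4KR, the promoter that drives the transgenes nor whether each line is 1 clone. Each line was measured 12 h after lipofection of 100 ng/ml short (low molecular weight) poly I:C, a synthetic mimic of viral double-stranded RNA, and unstimulated (0 h). The 4 groups, 4KR at 12 h, 4KR at 0 h, LGP2 at 12 h and LGP2 at 0 h, had 1 array each, so every difference below lacks a replicate check and a test. No mock-transfected array was analysed here, and an effect of poly I:C cannot be told apart from one of transfection or of the time in culture.

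Double-stranded RNA in the cytoplasm is sensed by RIG-I-like receptors, which signal through the adaptor MAVS to interferon regulatory factors and NF-kB. Interferon made in response acts back on the cells through STAT and IRF proteins, which bind the interferon-stimulated response element (ISRE) and the gamma-activated site (GAS) in the promoters of antiviral genes. The effectors studied here then act at different steps of a viral life cycle. IFITM1 and CH25H hinder fusion at entry, BST2 holds budding virions at the membrane, and ISG20 and ZC3HAV1 act on viral RNA.

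The promoters of 6 of the 9 genes shared a sequence feature, shown here because the same 6 had the largest responses on the arrays; those responses were known when the search was made. RefSeq windows from 250 bases before to 50 after each annotated start (build GRCh38.p14) were matched for all 9 genes and searched on both strands for the ISRE core, written as GAAA, any 2 bases, GAAA. It was found in IFITM1, BST2, PLSCR1, ISG20, RSAD2 and SAMD9, and not in ZC3HAV1, SAMD9L or CH25H. Of the genes without it, only ZC3HAV1 has a response to compare, as SAMD9L and CH25H were at or near background. Of all 34943 RefSeq windows of that length, 3.57% held it. Such shares count windows, while a gene counts here if any of its windows held the motif. The matches are printed on the strand of the gene with 20 bases on either side, and capitals mark the core.
IFITM1, upstream match at chr11:313980-314029, plus strand: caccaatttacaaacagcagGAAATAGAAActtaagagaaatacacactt
IFITM1, match at the start, chr11:314014-314063, plus strand: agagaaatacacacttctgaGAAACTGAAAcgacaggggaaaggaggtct
BST2, 2 overlapping matches at chr19:17405725-17405780, minus strand: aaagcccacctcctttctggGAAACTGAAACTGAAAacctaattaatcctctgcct
PLSCR1, chr3:146544657-146544706, minus strand: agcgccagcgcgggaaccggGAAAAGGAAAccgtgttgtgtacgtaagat
ISG20, chr15:88638927-88638976, plus strand: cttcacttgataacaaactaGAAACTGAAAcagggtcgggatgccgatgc
RSAD2, chr2:6877612-6877661, plus strand, core on the other strand: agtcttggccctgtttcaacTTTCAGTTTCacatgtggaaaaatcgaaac
SAMD9, chr7:93118086-93118135, minus strand: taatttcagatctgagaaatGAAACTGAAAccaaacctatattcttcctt

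In 5 of these genes, IFITM1, BST2, ISG20, RSAD2 and SAMD9, the core was identical, with CT as the free bases, and this exact core occurred in 0.26% of all windows. The core of PLSCR1 and the upstream core of IFITM1 differ from it at the free bases. Counted from the start, the cores began at -40 and -6 in IFITM1, -130 in BST2, -69 in ISG20, -136 in SAMD9, and -145 in RSAD2 from the second of its 2 annotated starts, while the first start held none. PLSCR1 has 2 annotated starts close together, and its core began at -79 or -91.

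The GAS motif, TTC, any 3 bases, GAA, was present in 4 genes (IFITM1, BST2, PLSCR1 and ZC3HAV1), against 7.66% of all windows. It overlapped an ISRE core in IFITM1 and, at 1 of its 2 GAS matches, in BST2. For ZC3HAV1 it was the only match, and it is shown with the motif in capitals.
ZC3HAV1, chr7:139109796-139109844, minus strand: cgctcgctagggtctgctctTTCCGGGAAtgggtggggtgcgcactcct

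The kappa B consensus, found in 11.3% of windows, matched BST2 alone among the 9. A match is a sequence description and not a measured binding site.

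**Figure D1:**
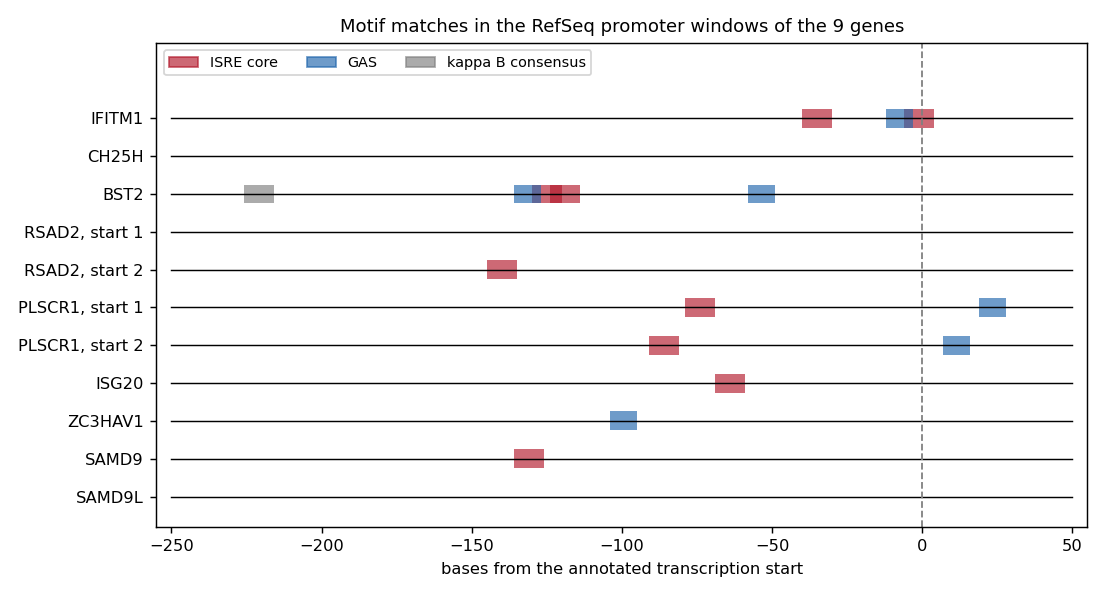
Positions of ISRE core, GAS and kappa B consensus matches in the RefSeq promoter windows, with bases from the annotated start on the x axis and 1 row per window (RSAD2 and PLSCR1 have 2 starts). IFITM1, BST2, PLSCR1, ISG20, SAMD9 and the second start of RSAD2 carry an ISRE core, and the windows of CH25H and SAMD9L are empty.

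Each array held 24460 gene probes, and 83.2% to 89.2% of them passed detection, that is stood more than 2 SD above the average of 384 blank spots. Before normalization the stimulated arrays were the brighter ones, with detected probes at a median of 62.8 scanner units above the blank level at 12 h and 43.0 at 0 h in 4KR cells, and 51.8 at 12 h and 44.5 at 0 h in LGP2 cells. DHX58, the gene of LGP2, had deposited intensities of 42.6 at 12 h and 22.8 at 0 h in 4KR cells, and 51.0 at 12 h and 41.4 at 0 h in LGP2 cells. Where its single probe lies relative to the transgene is not known here, so it does not check the labels. It sits in spot block 24, which had the largest shift between the lines at 0 h (-0.16 in 4KR over LGP2 cells, as the median log2 ratio against that of all probes). The log2 ratio of DHX58 itself in that comparison was -0.49, and -0.33 with the block median removed. Of 8 measured HEK293 markers, among them VIM, NEFL and LIN28B, all were detected on every array. Their summed deposited intensity was 1855 at 12 h and 2460 at 0 h in 4KR cells, and 1952 at 12 h and 2385 at 0 h in LGP2 cells. VIM made up most of it, with 1084 at 12 h and 1561 at 0 h in 4KR cells, and 1173 and 1492 in LGP2 cells. The median log2 ratio of the 8 was -0.11 in 4KR cells and -0.085 in LGP2 cells. What part these markers had in the ratios below was not tested. CDH2, 1 of these 8 and also in block 24, had a log2 ratio of 12 h over 0 h of -0.20 in 4KR cells and -0.78 in LGP2 cells, and of -0.25 and -0.68 with the block median removed. The 6 measured leukocyte markers had deposited intensities summing to 41.1 at 12 h and 37.9 at 0 h in 4KR cells, and 44.3 at 12 h and 35.7 at 0 h in LGP2 cells, with CD14, detected on every array at 20.5 to 23.1, as the largest part. CD3E, LYZ and LCP1 were also detected on every array, and PTPRC was detected on none. The 4 endothelial markers summed to between 34.3 and 39.1, of which KDR, detected on every array, made up 28.2 to 31.6. VWF was detected on every array too, and PECAM1 on none.

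Of the 9 genes, 7 were detected on all 4 arrays, and all 7 were brighter at 12 h than at 0 h in both lines. Past a 2-fold ratio were 5 of the 9 in 4KR cells (IFITM1, ISG20, PLSCR1, RSAD2 and BST2) and the same 5 in LGP2 cells. Of all genes detected on the brighter array, 0.411% were 2-fold higher in 4KR cells and 0.444% in LGP2 cells. Past 1.5-fold were 7 of the 9 in 4KR cells (1.59% of all genes) and 6 of the 9 in LGP2 cells (1.89%). On the brighter array 7 of the 9 were detected in 4KR cells and 8 in LGP2 cells. None of these was 1.5-fold lower, against 0.429% of all genes in 4KR cells and 0.51% in LGP2 cells. In the next paragraphs intensities are those of the deposited table, on a linear scale with an array median of 25, and log2 ratios come from normalized scanner values with an added offset of 50, which shrinks the ratios of dim genes.

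Among the entry factors, IFITM1 was higher at 12 h in both lines, and CH25H was at or near background. IFITM1 encodes a membrane protein that hinders the fusion of enveloped viruses with the cell. Its deposited intensity was 721 at 12 h and 116 at 0 h in 4KR cells. LGP2 cells had 718 at 12 h and 101 at 0 h. Both stimulated arrays thus stood well above both unstimulated ones, and the lines were almost level at 12 h. On the log2 scale the ratio between times was 2.33 in 4KR cells and 2.36 in LGP2 cells, which ranked 21 of 16564 and 21 of 16676 genes. It was the largest ratio of the 9 genes in 4KR cells, and in LGP2 cells it was level with that of ISG20.

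CH25H makes 25-hydroxycholesterol, an oxysterol that interferes with membrane fusion. Its probe was not well above background in 4KR cells at either time, with spots 1.13 scanner units above the blank level at 12 h and -0.06 at 0 h. In LGP2 cells it stood 2.66 units above the blank level at 12 h, just past detection, and -0.56 at 0 h. Only the LGP2 array at 12 h has a deposited value, 1.40. No fold is given, since the lower bound stayed under 1.

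Both genes that act on release, BST2 and RSAD2, were more than 2-fold higher at 12 h in each line. BST2 encodes tetherin, which anchors budding enveloped virions to the cell surface. Its deposited intensity was 179 at 12 h and 47.0 at 0 h in 4KR cells. LGP2 cells had 195 at 12 h and 38.8 at 0 h. The log2 ratio was 1.36 in 4KR cells and 1.56 in LGP2 cells.

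RSAD2 encodes viperin, a radical SAM enzyme that makes a chain-terminating nucleotide and has been linked to altered lipid rafts and budding. Its deposited intensity was 125 at 12 h and 27.3 at 0 h in 4KR cells. In LGP2 cells it was 102 at 12 h and 29.2 at 0 h. The stimulated 4KR array was the brightest of the 4 and the unstimulated 4KR array the dimmest. The log2 ratio was 1.40 in 4KR cells and 1.01 in LGP2 cells, where it only just passed 2-fold.

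PLSCR1, which encodes a phospholipid scramblase that is induced by interferon and has been shown to limit virus entry, had an intensity of 502 at 12 h and 110 at 0 h in 4KR cells. LGP2 cells had 518 at 12 h and 88.8 at 0 h. The log2 ratio was 1.90 in 4KR cells and 2.05 in LGP2 cells. Other scramblase genes were under 1.5-fold in the main processing. Of PLSCR2, PLSCR3, PLSCR4, PLSCR5, ANO6 and XKR8, 5 were detected, and their log2 ratios lay between -0.14 and 0.07 in 4KR cells and between -0.17 and 0.04 in LGP2 cells. PLSCR2, PLSCR4 and XKR8 were dim, with deposited intensities between 0.95 and 13.0, where the offset shrinks ratios. Over the settings PLSCR2 reached -0.67 in LGP2 cells.

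The genes that act on RNA differed widely in size of response. ISG20 encodes a 3′ to 5′ exonuclease that degrades single-stranded RNA. Its deposited intensity was 308 at 12 h and 46.8 at 0 h in 4KR cells. In LGP2 cells it was 344 at 12 h and 36.6 at 0 h. The log2 ratio was 2.10 in 4KR cells and 2.36 in LGP2 cells.

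ZC3HAV1 encodes the zinc-finger antiviral protein ZAP, which binds CpG-rich viral RNA and recruits decay enzymes. Its deposited intensity was 50.6 at 12 h and 18.3 at 0 h in 4KR cells. In LGP2 cells it was 48.7 at 12 h and 18.7 at 0 h. The log2 ratio was 0.69 in 4KR cells and 0.57 in LGP2 cells, the smallest of the 7 detected genes. The annotation ties this probe, like those of ISG20 and SAMD9L, to a predicted transcript, and which ZAP isoforms it reads is not known here.

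SAMD9 and SAMD9L are neighbouring paralogs on chromosome 7 whose products restrict poxviruses and repress translation. SAMD9 had an intensity of 46.7 at 12 h and 8.40 at 0 h in 4KR cells. LGP2 cells had 48.3 at 12 h and 7.51 at 0 h. Its log2 ratio, 0.98 in both lines, was just under 2-fold. The SAMD9L probe was not well above background on any of the 4 arrays, with spots between 1.85 scanner units below and 0.95 above the blank level, and has no fold.

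**Figure D2:**
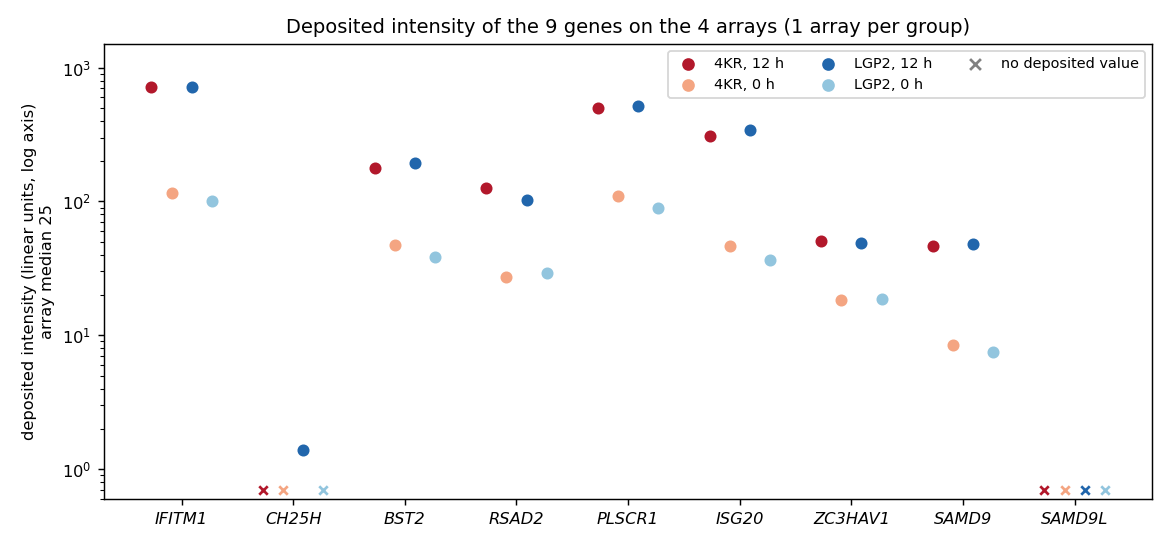
Deposited intensity (log axis, array median 25) of the 9 genes, with 1 point per array in the order 4KR at 12 h, 4KR at 0 h, LGP2 at 12 h and LGP2 at 0 h, and a cross where the table is empty. For the 7 genes with values on all arrays, both 12 h points lie above both 0 h points, from 48.7 to 721 across genes at 12 h and from 7.51 to 116 at 0 h.

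The order of the responses depended on how dim signals were treated. On the linear scale of the deposited table, SAMD9 was 5.56-fold higher at 12 h in 4KR cells and 6.43-fold in LGP2 cells, behind ISG20 and IFITM1 alone among the 7 genes in both lines and above PLSCR1, BST2 and RSAD2. ISG20 led there, with 6.59-fold in 4KR cells and 9.40-fold in LGP2 cells, ahead of IFITM1 with 6.20-fold and 7.11-fold. ZC3HAV1 stayed last, with 2.77-fold in 4KR cells and 2.60-fold in LGP2 cells. In that table all 7 genes with values passed 2-fold in both lines, but so did 3.31% of all genes with values in 4KR cells and 6.21% in LGP2 cells. The median log2 ratio of all genes lay at 0.15 in 4KR cells and 0.25 in LGP2 cells there, against -0.01 in both lines after quantile normalization.

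**Figure D3:**
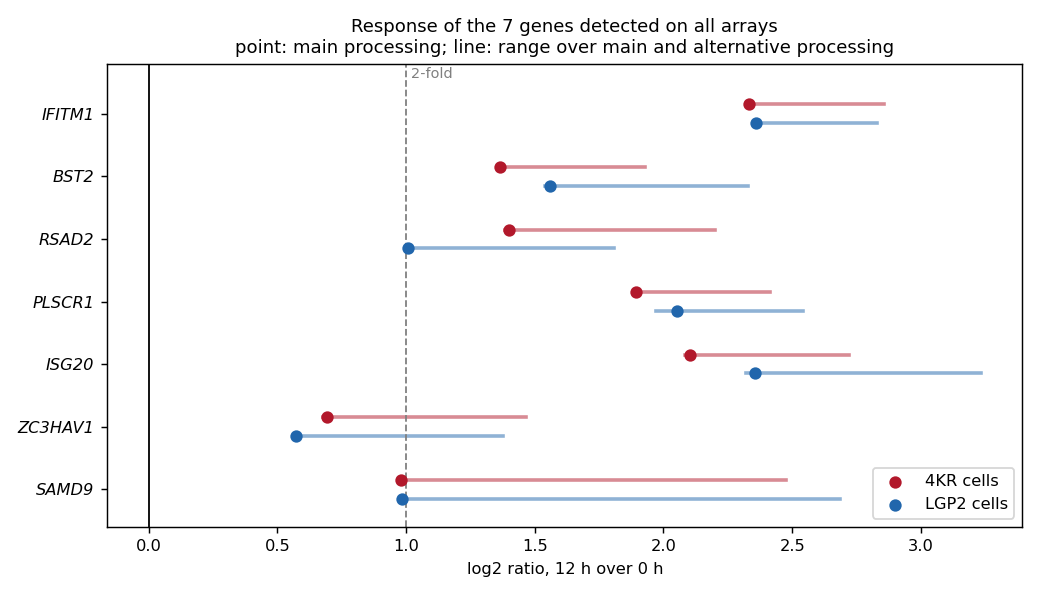
Log2 ratio of 12 h over 0 h for the 7 genes detected on all arrays, in 4KR cells (red, upper) and LGP2 cells (blue, lower), with the main value as a point and the range over the main and 9 alternative settings as a line. With 1 probe per gene, the settings for detection and for the brightest probe cannot change these ratios. IFITM1, ISG20, PLSCR1, BST2 and RSAD2 lie past 2-fold throughout, and SAMD9 runs from 0.98 to 2.48 in 4KR cells and from 0.98 to 2.68 in LGP2 cells.

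The design of 2 lines asks whether the 4KR form changes the response. Between the lines 0 of the 7 genes detected on all arrays differed by 1.5-fold in their response (4KR minus LGP2). Of all 15738 genes detected on all arrays, 0.883% did. RSAD2 had the largest difference, 0.39 on the log2 scale, above the middle 95% of all genes, which ran from -0.30 to 0.30. That range is over all genes, few of which were 2-fold higher at 12 h, and is not a replicate spread. The difference of RSAD2 was between 0.36 and 0.56 in every setting tried. ISG20 had the largest difference in the other direction, -0.25, within that range, and it was between -0.51 and -0.05 over the settings.

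BST2 and PLSCR1 were at -0.19 and -0.16, each above 0 without normalization between arrays (0.02 and 0.04), a setting that put the all-gene median at 0.13. Relative to that median both were negative in every setting. ZC3HAV1 was at 0.12 and between 0.08 and 0.28 over the settings. IFITM1 and SAMD9 were at -0.03 and 0.00, and both took either sign over the settings. With 1 array per group, none of these differences can be set against a replicate spread.

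**Figure D4:**
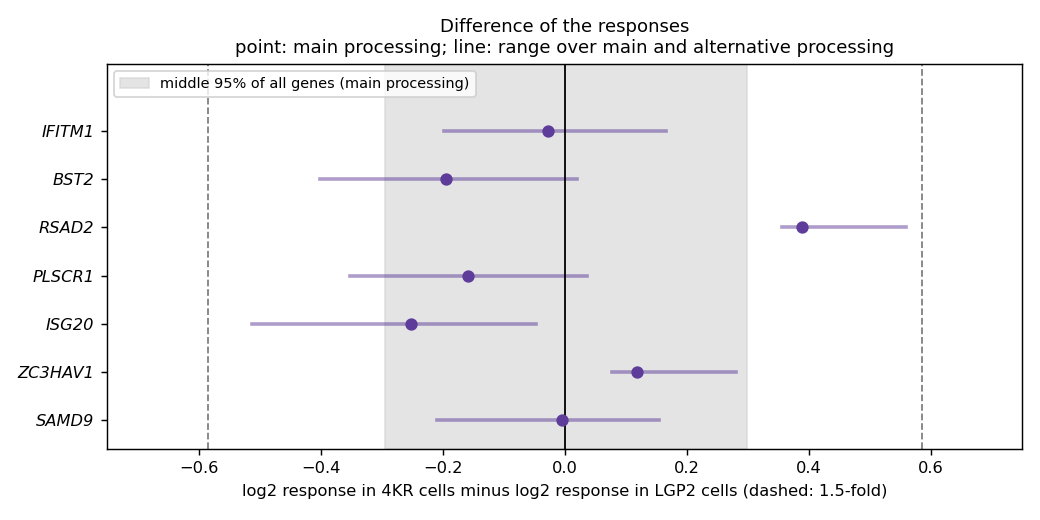
Log2 response in 4KR cells minus log2 response in LGP2 cells for the 7 detected genes, with the main value as a point, the range over settings as a line and the middle 95% of all genes (-0.30 to 0.30) in grey. The point of RSAD2, at 0.39, is the only one outside the grey band, and no point reaches the dashed 1.5-fold lines.

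In the main processing the lines stood apart mostly at 0 h for ISG20 and BST2, and mostly at 12 h for RSAD2. Without stimulation, 0 of the 7 genes detected on the brighter array were 1.5-fold apart in 4KR over LGP2 cells, against 0.471% of all genes so detected. PLSCR1 was at 0.26, ISG20 at 0.22, BST2 at 0.18 and IFITM1 at 0.18, all with the 4KR array the brighter in every setting tried. The middle 95% of all genes ran from -0.26 to 0.18, so PLSCR1 and ISG20 lay above it. RSAD2, ZC3HAV1 and SAMD9 were at -0.05, -0.02 and 0.03.

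At 12 h, 0 of the 8 genes detected on the brighter array were 1.5-fold apart, against 0.0939% of all genes so detected. RSAD2 was at 0.33, outside the middle 95% of all genes (-0.20 to 0.19), and between 0.30 and 0.49 over the settings. IFITM1 was at 0.15 and ZC3HAV1 at 0.09, both above 0 in every setting, and PLSCR1 was at 0.11, but at -0.05 in the deposited table. BST2, ISG20 and SAMD9 were at -0.02, -0.03 and 0.03, each with either sign over the settings. Probes on this array shift with their block of spots, and the PLSCR1 probe lies in block 21, where the median difference of the responses was -0.11 from that of all probes. With the block median removed, its difference of the responses was -0.05.

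Companion genes were taken from 9 lists. Of their 81 genes, 75 had a probe and 70 were detected on the brighter array in each line. Past 2-fold was 1 of them in both lines, against 0.411% of all genes in 4KR cells and 0.444% in LGP2 cells. In each line 3 were past 1.5-fold higher, against 1.59% and 1.89% of all genes. None was past 1.5-fold lower, against 0.429% and 0.51%. Companion ratios and counts are those of the main processing unless another is named, and its offset shrinks the ratios of dim genes. Their median log2 ratio was 0.03 in 4KR cells and 0.01 in LGP2 cells, near the median of all genes.

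The gene past 2-fold as a mean over its probes was NCOA7, of the membrane entry list, an interferon-inducible inhibitor of endosomal fusion. Its log2 ratio was 1.15 in 4KR cells and 1.18 in LGP2 cells, but its 2 probes disagreed. One had 2.03 in 4KR cells and 2.05 in LGP2 cells, with intensities of 424 at 12 h and 78.5 at 0 h in 4KR cells and of 448 at 12 h and 74.9 at 0 h in LGP2 cells, and the other had 0.27 and 0.31. The remaining 7 measured genes of that list, which include the virion factors SERINC3 and SERINC5 and the restriction factor TRIM5, lay under 1.5-fold, and the platform annotation used here named no probe for IFITM2 or IFITM3.

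CMPK2, the mitochondrial nucleotide kinase whose gene lies beside RSAD2, had a mean log2 ratio over 2 probes of 0.82 in 4KR cells and 0.84 in LGP2 cells. Its brighter probe was past 2-fold in both lines, with 1.06 in 4KR cells and 1.05 in LGP2 cells, against 1.40 and 1.01 for RSAD2. That probe had intensities of 47.5 at 12 h and 6.90 at 0 h in 4KR cells, and of 51.3 at 12 h and 7.12 at 0 h in LGP2 cells. The dimmer probe had 0.57 in 4KR cells and 0.63 in LGP2 cells. CMPK2 is dim without stimulation, and whether its ratio was below or above that of RSAD2 depended on how dim signals were treated. In the deposited table the brighter probe was 6.88-fold higher at 12 h in 4KR cells and 7.20-fold in LGP2 cells, against 4.59-fold and 3.50-fold for RSAD2. Between the lines at 12 h CMPK2 was at -0.02, and at 0.11 without normalization between arrays, where RSAD2 was above 0 in every setting. The other 9 viperin partners, such as FDPS, IRAK1 and TRAF6, lay under 1.5-fold in the main processing. Over the settings TRAF6 reached 0.82 in 4KR cells and 0.92 in LGP2 cells, past 1.5-fold.

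AEN, an exonuclease related to ISG20 and its neighbour on chromosome 15, was at 0.75 in 4KR cells and 0.72 in LGP2 cells, with intensities of 1187 at 12 h and 739 at 0 h in 4KR cells and of 1303 at 12 h and 781 at 0 h in LGP2 cells. ISG20L2, REXO4 and REXO1, of the same exonuclease family, were all under 1.5-fold. In the main processing 0 of 7 detected partners of ZAP passed 1.5-fold. They were led by TRIM25, the ubiquitin ligase that ZAP depends on, at 0.40 in 4KR cells and 0.37 in LGP2 cells. In the deposited table TRIM25 did pass 1.5-fold, at 1.76-fold higher at 12 h in 4KR cells and 1.81-fold in LGP2 cells. The all-gene median log2 ratio there was 0.15 and 0.25.

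Of 18 genes for exosome subunits and other RNA decay enzymes, 0 passed 1.5-fold in either line as a mean over probes. Their median was 0.13 in 4KR cells and 0.03 in LGP2 cells. The decapping cofactor DCP1A led by mean size at 0.46 in 4KR cells and 0.50 in LGP2 cells. One of its probes, at 0.58 in 4KR cells, was past 1.5-fold in LGP2 cells at 0.65, and the other had 0.34 and 0.35. In the deposited table the dim XRN1 passed 2-fold in both lines. It had 19.0 at 12 h and 9.3 at 0 h in 4KR cells, and 18.8 and 8.9 in LGP2 cells. The exonuclease gene XRN2 was the 1 companion whose response differed by 1.5-fold between the lines, with 0.55 in 4KR cells and -0.28 in LGP2 cells, and is named here after its values were seen. Its probe lies in block 24, where the median difference of the responses was 0.17 from that of all probes, the largest shift of the 24 blocks. The difference for XRN2 was 0.84, and 0.66 with the block median removed. Its deposited intensity was 565 at 12 h and 377 at 0 h in 4KR cells, and 507 at 12 h and 585 at 0 h in LGP2 cells, so the unstimulated 4KR array was the lowest.

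In the main processing the lists for 25-hydroxycholesterol handling, ESCRT release machinery and Schlafen genes had 0 of 6, 0 of 9 and 0 of 3 detected genes past 1.5-fold in either line. Their leading genes were SOAT1, which esterifies cholesterol, at -0.13 in 4KR cells and -0.02 in LGP2 cells, CHMP3 at -0.33 and -0.31, and SLFN5 at 0.30 and 0.25. In the deposited table the dim SLFN5 was 2.05-fold higher at 12 h in 4KR cells and 1.96-fold in LGP2 cells. Among the scramblases, PLSCR3 led with -0.14 and -0.17.

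**Figure D5:**
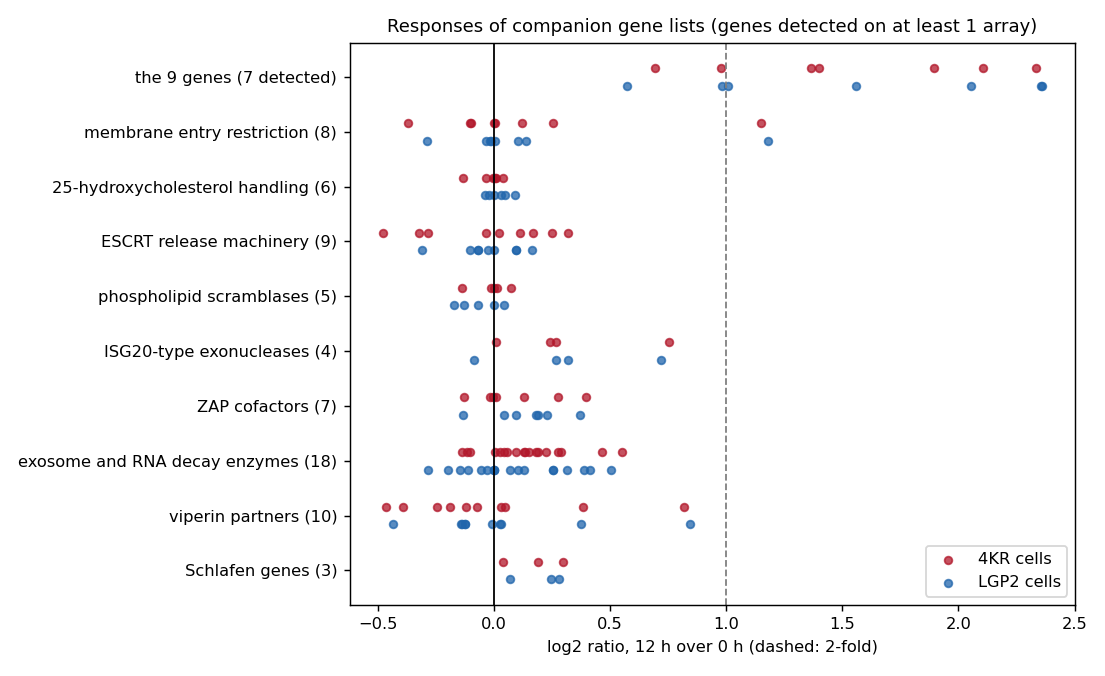
Log2 ratio of 12 h over 0 h for the 7 detected genes of the set and for the detected genes of 9 companion lists, 1 point per gene, in 4KR cells (red, upper) and LGP2 cells (blue, lower). Each point is the mean over a gene's probes, and NCOA7, in the entry list, is the single companion whose mean is past the dashed 2-fold line, and the 7 genes lie between 0.57 and 2.36.

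The genes whose pattern over the 4 arrays lay nearest were found for the 5 genes past 2-fold, by the Euclidean distance between log2 levels centred on their mean. For IFITM1 these were EGR1, an immediate early transcription factor, CXCL11, a chemokine gene, and IFIH1, the gene of the RNA sensor MDA5, at distances of 0.10, 0.15 and 0.20. For BST2 they were PPP1R15A, IER3 and IFIT5 (0.10, 0.12 and 0.13). HERC5, the ligase for ISG15, was nearest both to PLSCR1 (0.18) and to ISG20 (0.11). PLSCR1 was followed by IRF7 and RND1, and ISG20 by OR9I1 and ATF3. RSAD2 had SAT1, a transcript named UG0898H09 and IFI27 nearest (0.16, 0.19 and 0.20). Each likeness rests on 4 arrays.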

How the data were processed

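Per the labels' protocols, amino allyl aRNA was made from total RNA, and Cy5 was coupled to it for hybridisation to 1-colour arrays. Per the file headers, each scanner table holds the median intensity of every spot on a linear scale, not normalized. The deposited series table gives each probe an intensity that, set against the scanner values, equals the spot median minus about the blank level, scaled to an array median of 25 (largest residual 0.053). The choice of probes left empty, the software and any genome build are not given in the sources used here.

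In limma 3.58.1 (R 4.3.3), scanner intensities were corrected by normexp against the mean blank spot with an offset of 50, quantile normalized over the 4 arrays and put on the log2 scale. The steps were tested on simulated data, built from 1 array with changes in brighter probes alone. That test covers neither dim probes nor arrays of unequal brightness. Genes were named through the platform annotation (21707 probes with 1 gene, 0 with several, 2753 unnamed, 21675 matched to RefSeq), and different probes of a gene were averaged. Of the genes, 17086 were detected on at least 1 array. Ratios count where the brighter array detected the gene, and differences between responses where all 4 arrays did. Each group has 1 array, and this number limits the precision.

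The genes, companion lists and alternatives were chosen with earlier results of these data known. Named were all 9 genes, up to 4 companions per list past 2-fold or else the 1 with the largest mean ratio, and the 3 nearest patterns for each gene past 2-fold in both lines. Other companions are given as examples of their list. Promoter windows are RefSeq's.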

Additional observations from a re-analysis of the deposited data

How the results depend on the processing

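For robustness, 9 alternatives were tried for each count of the 9 genes: an offset of 16, plain subtraction of the blank level, no normalization between arrays, median scaling, the deposited table, no detection filter, detection at 3 SD, removal of block medians and the brightest probe per gene. Each of the 9 genes has 1 probe, so the detection settings and the brightest probe could not change its ratios. The count past 2-fold at 12 h ran from 5 to 7 in each line, always including IFITM1, BST2, PLSCR1, ISG20 and RSAD2, with SAMD9 and then ZC3HAV1 joining. The count 1.5-fold apart between the lines at 12 h was 1 with plain subtraction, where CH25H, at background in 4KR cells, came to -0.64 by the floor set for dim spots. Over all genes, the count 2-fold higher was 68 in 4KR cells and 74 in LGP2 cells, 453 and 590 with plain subtraction, 418 and 177 without normalization between arrays, 109 and 107 with median scaling, 101 and 119 with an offset of 16, and 536 and 1000 in the deposited table. Medians of companion lists passed 1.5-fold in 3 cases without normalization between arrays (ISG20-type exonucleases in both lines, RNA decay enzymes in 4KR cells) and in 1 in the deposited table (Schlafen genes in LGP2 cells). Companions past 2-fold numbered 1 to 4 in each line. CMPK2 joined NCOA7 in both lines with an offset of 16, plain subtraction, the deposited table and the brightest probe. Without normalization between arrays CMPK2, AEN and XRN2 joined NCOA7 in 4KR cells. In the deposited table XRN1 also passed in both lines, SLFN5 in 4KR cells and CYP46A1 in LGP2 cells. No paired analysis was possible because the groups compared within a line hold 1 array each and no replicate numbers. A fit of time with the 2 lines as pairs, which would take the lines as replicates of each other, was not run. Signals near the blank level limit SAMD9L and CH25H.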

Other observations

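Chromosomal neighbours of the 9 genes, taken from the RefSeq gene order after the companion lists were made, are given as values of the log2 ratio of 12 h over 0 h. Beside PLSCR1, PLSCR2 was at 0.00 in 4KR cells and -0.07 in LGP2 cells, and PLSCR5 was not detected. Beside ZC3HAV1 lies its relative ZC3HAV1L, at -0.03 in 4KR cells and -0.08 in LGP2 cells, against 0.69 and 0.57 for ZC3HAV1. ACAN, on the other side of ISG20 from AEN, was at -0.03 and -0.01, and RNF144A, on the other side of RSAD2 from CMPK2, was at -0.03 and -0.02. IFT56, on the other side of ZC3HAV1, was at 0.15 and 0.16. MVB12A, an ESCRT subunit gene beside BST2, was at -0.12 in 4KR cells and -0.50 in LGP2 cells. HEPACAM2, beside SAMD9L, was at 0.01 and 0.00. PLSCR2, ACAN and HEPACAM2 were dim, with deposited intensities of 0.95 to 1.84, 3.05 to 3.65 and 2.39 to 3.60, and the offset shrinks their ratios. CDK6, beside SAMD9, was at 0.00 in 4KR cells and 0.08 in LGP2 cells. LIPA, the lysosomal lipase gene beside CH25H, was at -0.40 in 4KR cells and -0.28 in LGP2 cells, and FAS on its other side was at -0.02 and 0.20.

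Outside the 9 genes, an ISRE core in a promoter window went with a 2-fold ratio in a small share of genes. Of 519 other measured genes with the core, 3.47% were 2-fold higher at 12 h in 4KR cells, against 0.282% of 12433 genes without it. In LGP2 cells the shares were 4.03% of 521 genes and 0.296% of 12510 genes. For the exact core that 5 of the 9 genes share, the shares were 15.6% of 45 genes (7 genes) in 4KR cells and 18.2% of 44 genes (8 genes) in LGP2 cells. Without that exact core they were 0.356% of 12907 genes in 4KR cells and 0.385% of 12987 genes in LGP2 cells. These shares are descriptions, and genes are not replicates.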
